A study of Rattus norvegicus with 16 samples.

Results

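Integrins and laminins were followed through 16 rat corneas as 36 genes, taken as every probe set whose 1 gene symbol begins with *Itga*, *Itgb*, *Lama*, *Lamb* or *Lamc*. The 36 genes came from 54 probe sets, of 14217 genes read on the arrays. They comprise 15 integrin alpha subunits, 7 integrin beta subunits, 10 laminin chains and 4 genes that share the letters but code for no subunit (*Itgb1bp1*, *Itgb1bp2*, *Itgb3bp* and *Itgbl1*). Subunits without such a probe set, among them *Itga2*, *Itga4* and *Itgb8*, were not analysed here.

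Integrins are receptors of an alpha and a beta subunit that cross the cell membrane and tie the cytoskeleton to the matrix or to other cells. Laminins are trimers of an alpha, a beta and a gamma chain and form the meshwork of basement membranes. In the cornea the basal epithelium is anchored through hemidesmosomes, in which the integrin of *Itga6* and *Itgb4* holds an epithelial laminin that contains the products of *Lama3* and *Lamb3*, whereas the integrins that contain *Itgb2* are carried by leukocytes and serve their arrest on vessel walls and their migration.

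RNA of 1 cornea was hybridized to each array, with 4 corneas from male Wistar rats of 12 to 16 weeks in each of 4 groups. Naïve corneas carried no suture and received no drops, so suture and drops cannot be told apart in comparisons with them. In the other 3 groups 2 sutures had been placed in the temporal cornea of the right eye, and eyedrops were given 4 times per day for 2 days as IgG, as an antibody against rat *Vegf* (anti-*Vegf*) or as dexamethasone, a glucocorticoid, at 1 mg/ml. IgG and anti-*Vegf* were at 20 mg/ml in the sample labels and at 20 µg/ml in the study's methods, the labels of the IgG corneas name an anti-IgG antibody where the treatment text names goat IgG, and the harvested tissue is the cornea without the scleral rim in the labels but the area from the sutures to the limbus in the methods. Values are log2 signals after RMA, the summary of an Affymetrix probe set. Array medians lay between 6.55 and 6.61.

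A gene was called a differentially expressed gene (DEG) relative to naïve corneas at a Benjamini-Hochberg adjusted p under 0.05 from limma with a 1.5-fold or larger change, and between treatments by the adjusted p alone. The adjustment ran over all 31042 probe sets tested, and errors of log2 differences are standard errors (SE) with n = 4 arrays per group. Bulk RNA cannot tell more cells of a type from more RNA per cell. Spiked poly-A controls, which are added to the RNA before labelling, differed between groups, with mean log2 signals of 5.11 ± 0.14 (SD, n = 4) in naïve corneas, 7.22 ± 0.27 with IgG, 7.02 ± 0.11 with anti-*Vegf* and 5.19 ± 0.15 under dexamethasone. They moved with IgG and anti-*Vegf* against both other groups. The log2 signal of the 5′ minus the 3′ beta-actin control, a sign of RNA integrity, was 0.58 higher with IgG than in naïve corneas (exact permutation test, two-sided, p = 0.029, the smallest that 4 against 4 arrays allow) and 0.42 higher with anti-*Vegf* (p = 0.23, same exact test). The part of both controls in the results was not tested. The poly-A split coincides with the groups in IgG or anti-*Vegf* against naïve corneas and in dexamethasone against either antibody group. There it cannot be told apart from treatment. Dexamethasone against naïve corneas and anti-*Vegf* against IgG lie within a side of that split.

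Relative to naïve corneas, 8 of the 36 genes were DEGs in IgG treated corneas (7 higher, 1 lower), 8 in anti-*Vegf* treated corneas (6 higher, 2 lower) and 10 in dexamethasone treated corneas (all higher). Among all 14217 genes the shares of DEGs were 11.3%, 12.8% and 12.6%. Of all genes, 6.32%, 6.82% and 8.19% rose and 5.02%, 5.94% and 4.45% fell. Treated and naïve arrays were fully separated for 13, 13 and 12 of the 36 genes, and for 31.3%, 31.3% and 28.3% of all genes. The median log2 difference of the 36 genes was 0.13, 0.12 and 0.19, beside -0.01, -0.01 and 0.00 over all genes. All 3 comparisons share the naïve arrays. *Itgb2*, *Itgax*, *Lama3*, *Lamb3* and *Lama4* were DEGs in all 3 treatments, 3 genes in 2 treatments and 5 genes in 1. Centring each array on 7 reference genes lowered the median of all genes to -0.23, -0.28 and -0.21, and the 36 genes then divided into 5 higher and 2 lower, 4 and 4, and 7 and 1. Calls lost under that centring were *Itgb4* in IgG and anti-*Vegf*, *Itgb3* in IgG and dexamethasone, *Lama3* in anti-*Vegf*, and *Itgax* and *Itga6* in dexamethasone corneas, with differences of 0.35 to 0.58 that stayed positive.

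**Figure D1:**
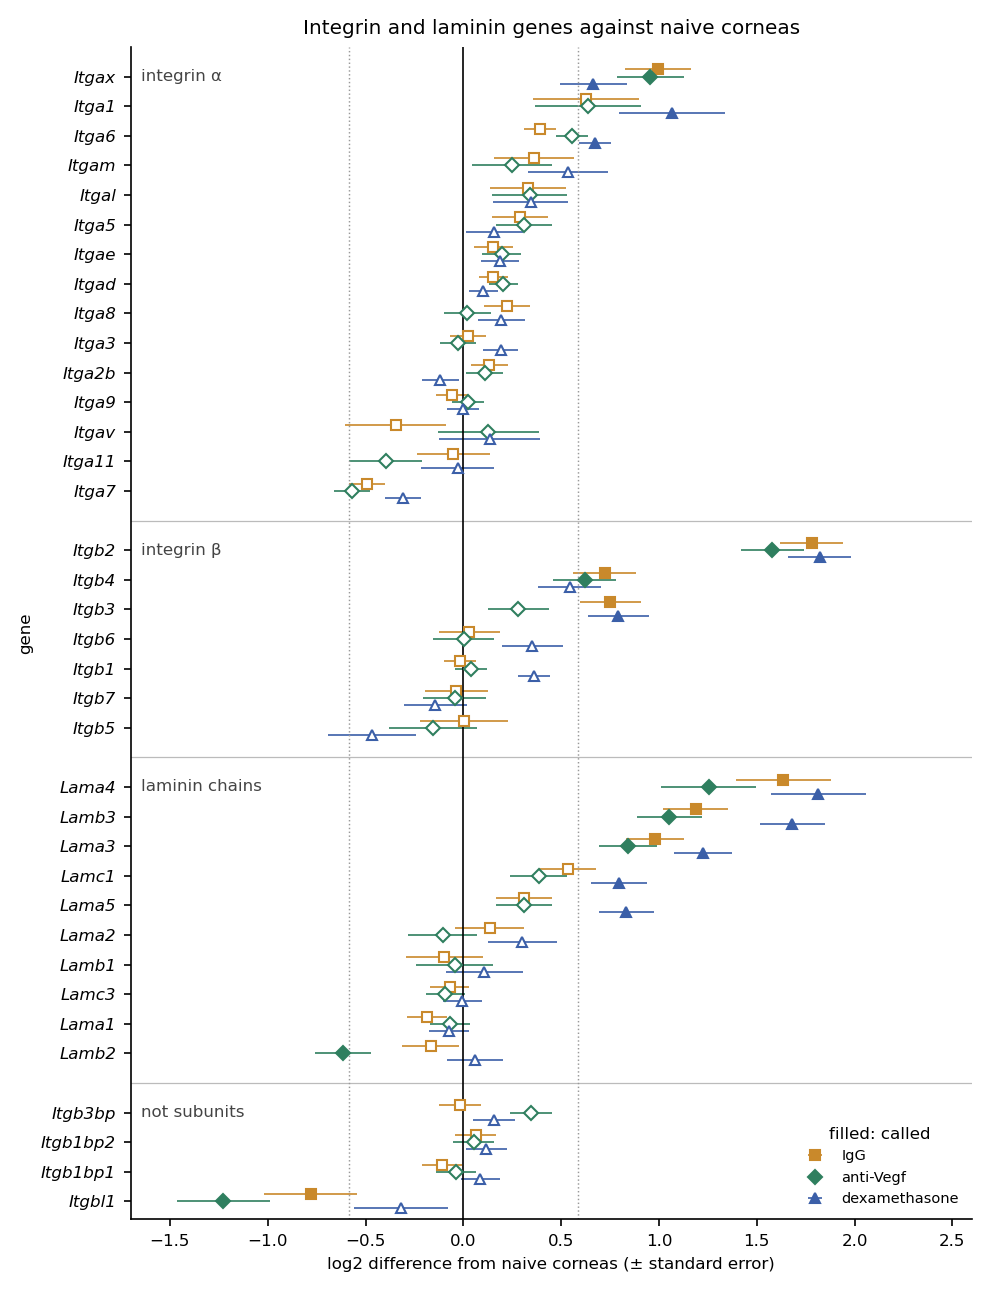
Log2 difference from naïve corneas (x axis, with SE) of the 36 genes (y axis, grouped by family) for IgG (squares), anti-*Vegf* (diamonds) and dexamethasone (triangles), with DEGs filled and dotted lines at a fold change of 1.5. The 5 genes filled in all 3 treatments are *Itgax*, *Itgb2*, *Lama4*, *Lamb3* and *Lama3*, and *Itgbl1* and *Lamb2* are filled on the lower side.

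*Lama3* and *Lamb3*, the alpha and beta chain of the epithelial laminin, rose in all sutured groups. *Lamb3* was 2.28-fold higher in IgG, 2.07-fold higher in anti-*Vegf* and 3.21-fold higher in dexamethasone treated corneas than in naïve corneas, and *Lama3* 1.97-fold, 1.79-fold and 2.34-fold. The 250 bases before the start of both genes are shown because the genes code for chains of 1 trimer, beside those of *Itgax*, a leukocyte gene described further on. They are RefSeq sequences of the GRCr8 build, in which 28 of the 36 genes were found, printed 5′ to 3′ on the strand of the gene. Capitals mark TGANTCA, a motif of the factor AP-1, read on both strands.
*Lama3*, chr18:3952517-3952766, plus strand: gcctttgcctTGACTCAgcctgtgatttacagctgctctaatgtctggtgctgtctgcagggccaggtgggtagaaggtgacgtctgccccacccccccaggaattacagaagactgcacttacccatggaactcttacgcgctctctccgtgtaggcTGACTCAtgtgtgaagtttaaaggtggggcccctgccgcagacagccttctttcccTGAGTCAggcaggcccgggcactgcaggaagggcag
*Lamb3*, chr13:107362303-107362552, plus strand: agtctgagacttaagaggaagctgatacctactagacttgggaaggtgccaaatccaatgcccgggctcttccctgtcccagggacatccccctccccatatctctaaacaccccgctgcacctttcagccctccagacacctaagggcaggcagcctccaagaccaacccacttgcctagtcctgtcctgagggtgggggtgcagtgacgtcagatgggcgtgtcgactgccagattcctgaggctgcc
*Itgax*, chr1:192149799-192150048, plus strand: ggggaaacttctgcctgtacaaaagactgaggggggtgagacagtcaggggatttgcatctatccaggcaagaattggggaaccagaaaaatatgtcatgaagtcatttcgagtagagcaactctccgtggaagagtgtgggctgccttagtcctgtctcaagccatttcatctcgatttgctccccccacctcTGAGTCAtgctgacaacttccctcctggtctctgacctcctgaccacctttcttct

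*Lama3* held 3 matches to the AP-1 letters, which began 240, 92 and 36 bases before the start, and *Itgax* held 1, which began 56 bases before it. The other 26 of the 28 windows held none, *Lamb3* included. *Itgax* codes for no laminin chain, and its window is shown because it held a match. At least 1 match was held by 2 of the 28 windows, beside 6.34% of the 33469 promoters of the RefSeq table. Of these promoters, 5 held 3 or more. The motif was chosen with the expression values known. A match describes the letters of the window and is not a measured binding site.

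*Lamb3* read 8.93, 9.002, 9.07 and 9.18 on the naïve arrays, 9.84, 10.25, 10.32 and 10.53 on the IgG arrays, 9.84, 9.96, 10.22 and 10.38 on the anti-*Vegf* arrays and 10.42, 10.63, 10.66 and 11.20 on the dexamethasone arrays. Every array of the sutured corneas lay above every naïve array, and every dexamethasone array lay above every anti-*Vegf* array, while the IgG and dexamethasone arrays overlapped. The log2 difference from naïve corneas was 1.19 ± 0.17 in IgG (adjusted p = 9.1e-05, limma), 1.05 ± 0.17 in anti-*Vegf* (adjusted p = 0.00023) and 1.68 ± 0.17 in dexamethasone treated corneas (adjusted p = 3.7e-06).

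*Lama3* read 7.95, 8.31, 8.33 and 8.43 on the naïve arrays, 8.92, 9.28, 9.32 and 9.42 on the IgG arrays, 8.73, 9.08, 9.26 and 9.32 on the anti-*Vegf* arrays and 9.31, 9.36, 9.47 and 9.77 on the dexamethasone arrays. The naïve arrays were again the lowest 4 of 16, and the 3 sutured groups overlapped. Log2 differences from naïve corneas were 0.98 ± 0.15, 0.84 ± 0.15 and 1.22 ± 0.15 in IgG, anti-*Vegf* and dexamethasone (adjusted p = 0.00018, 0.00055 and 2.6e-05, limma).

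*Itgb4*, the beta subunit of the hemidesmosome receptor, rose by less. *Itgb4* read 10.81, 10.85, 11.21 and 11.23 on the naïve arrays, 11.51, 11.69, 11.75 and 12.06 on the IgG arrays, 11.39, 11.48, 11.81 and 11.91 on the anti-*Vegf* arrays and 11.30, 11.48, 11.54 and 11.96 on the dexamethasone arrays. All sutured arrays lay above all naïve arrays, and the sutured groups overlapped each other. *Itgb4* was a DEG in IgG (0.72 ± 0.16, adjusted p = 0.0034, limma) and in anti-*Vegf* (0.62 ± 0.16, adjusted p = 0.0091), and in dexamethasone its difference of 0.54 ± 0.16 (adjusted p = 0.022) lay under the fold limit. The anti-*Vegf* call was lost without naïve array 1 or 2 or anti-*Vegf* array F6 or F7, where the difference was 0.53 to 0.57 and fell under the fold limit.

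*Itga6*, the alpha subunit of that receptor, was read by 4 probe sets, which did not give 1 answer. *Itga6* read 11.83, 11.84, 11.92 and 12.02 on the naïve arrays, 12.23, 12.24, 12.29 and 12.43 on the IgG arrays, 12.30, 12.44, 12.53 and 12.58 on the anti-*Vegf* arrays and 12.46, 12.57, 12.61 and 12.67 on the dexamethasone arrays. On this probe set, 1383240_at, all naïve arrays lay below all sutured arrays, and the dexamethasone arrays lay above the IgG arrays with no overlap. Its difference from naïve corneas was 0.39 ± 0.08 in IgG and 0.56 ± 0.08 in anti-*Vegf*, both with adjusted p under 0.05 but under the fold limit, and 0.67 ± 0.08 in dexamethasone, where it was a DEG (adjusted p = 2.5e-05, limma).

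2 further probe sets of *Itga6* gave larger rises over naïve corneas. 1371186_at differed from naïve corneas by 1.61 ± 0.21, 1.53 ± 0.21 and 0.98 ± 0.21 in IgG, anti-*Vegf* and dexamethasone, and 1393558_at by 1.20 ± 0.15, 1.23 ± 0.15 and 0.88 ± 0.15, all 6 of them DEGs. Dexamethasone minus IgG was 0.28 ± 0.08 on 1383240_at (adjusted p = 0.037), -0.63 ± 0.21 on 1371186_at (adjusted p = 0.076) and -0.32 ± 0.15 on 1393558_at (adjusted p = 0.19), so the sign depended on the probe set, with neither negative difference called. The fourth, 1371185_at, differed from naïve corneas by 0.13 to 0.28 and was no DEG. All 4 gave positive differences from naïve corneas in the 3 treatments.

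**Figure D2:**
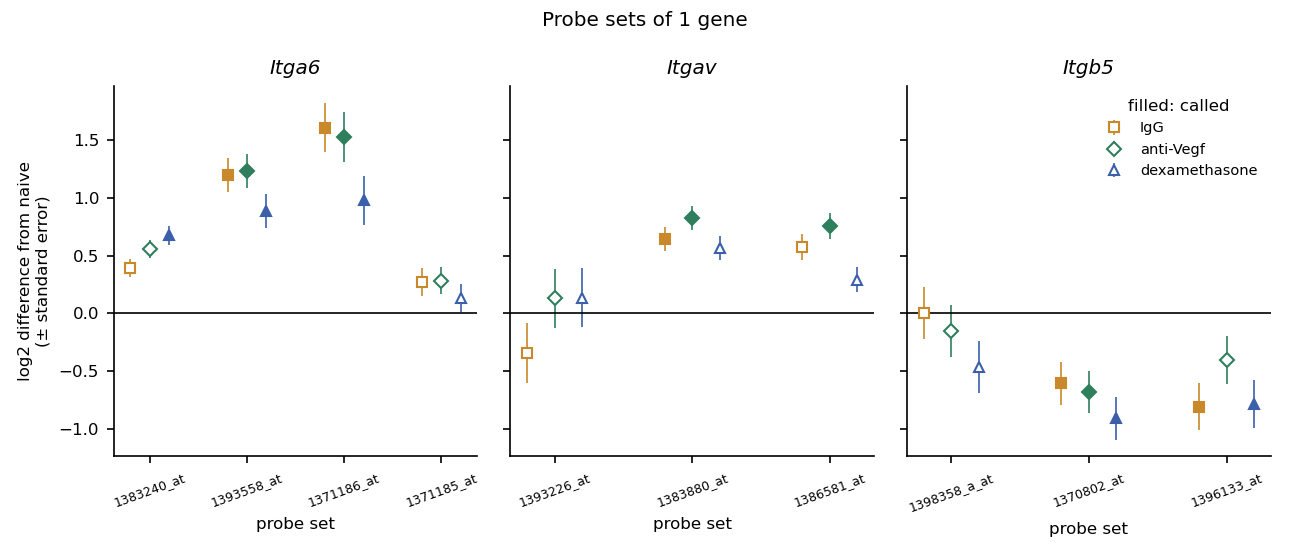
Log2 difference from naïve corneas (y axis, with SE) of each probe set (x axis) of *Itga6*, *Itgav* and *Itgb5* for IgG (squares), anti-*Vegf* (diamonds) and dexamethasone (triangles), with DEGs filled. *Itga6* probe sets 1371186_at and 1393558_at rose by 0.88 to 1.61 while 1383240_at differed by 0.39 to 0.67, and *Itgb5* fell on 1370802_at but not on 1398358_a_at.

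Of 6 other genes of the hemidesmosome on a list, 2 were DEGs in IgG and anti-*Vegf* and 1 in dexamethasone treated corneas. The shares of DEGs among all genes were 11.3%, 12.8% and 12.6%. *Krt14*, a keratin of basal epithelial cells, rose by 1.62, 1.69 and 1.55 on the log2 scale. *Dst*, whose epithelial product links keratin to the hemidesmosome, fell by 0.71 in IgG and by 0.62 in anti-*Vegf* corneas and was not a DEG in dexamethasone corneas, where it was 0.49 higher than in IgG (adjusted p = 0.036, limma). None of 5 measured markers of corneal epithelium was a DEG in any of the 6 comparisons. Their summed signal was 92203 to 94496 in naïve corneas and lower in each sutured group, at 81581 to 84593 in IgG, 78996 to 84495 in anti-*Vegf* and 79606 to 85837 in dexamethasone corneas, and its part in the results was not tested.

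*Itgb2*, the beta subunit common to the leukocyte integrins, had the largest mean rise of the 36 genes over the 3 treatments, at 3.43-fold in IgG, 2.99-fold in anti-*Vegf* and 3.54-fold in dexamethasone treated corneas. *Itgb2* read 5.46, 5.57, 5.83 and 5.88 on the naïve arrays, 7.05, 7.51, 7.63 and 7.68 on the IgG arrays, 7.22, 7.23, 7.30 and 7.32 on the anti-*Vegf* arrays and 7.07, 7.49, 7.58 and 7.90 on the dexamethasone arrays. The naïve arrays lay below all others by more than the spread of any group. On all 4 of them *Itgb2* was under the 40th percentile of the array, where arrays separate levels poorly, so the size of these folds is uncertain, and the same holds for *Itgax* and *Lama4*. Log2 differences were 1.78 ± 0.16, 1.58 ± 0.16 and 1.82 ± 0.16 (adjusted p = 1.5e-06, 5.0e-06 and 1.2e-06, limma). Dexamethasone differed from IgG by 0.04 ± 0.16 (adjusted p = 0.91) and from anti-*Vegf* by 0.24 ± 0.16 (adjusted p = 0.42), and neither difference was called.

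Of the 5 alpha subunits of leukocytes, *Itgax* alone was a DEG. *Itgax* codes for CD11c, which pairs with *Itgb2* on dendritic cells, macrophages and granulocytes. *Itgax* read 5.25, 5.48, 5.61 and 5.69 on the naïve arrays, 6.16, 6.48, 6.61 and 6.76 on the IgG arrays, 6.26, 6.38, 6.42 and 6.78 on the anti-*Vegf* arrays and 5.69, 6.11, 6.38 and 6.50 on the dexamethasone arrays. All arrays of IgG and anti-*Vegf* corneas lay above the naïve arrays, and dexamethasone array F25 reached 5.69, the same as the highest naïve array to 2 decimals. Differences from naïve corneas were 0.99 ± 0.17, 0.96 ± 0.17 and 0.66 ± 0.17 (adjusted p = 0.00050, 0.00062 and 0.0099, limma). The dexamethasone call was lost without naïve array 3 or dexamethasone array F26, at 0.58 and 0.55, under the fold limit. Dexamethasone minus IgG was -0.33 ± 0.17 (adjusted p = 0.25) and was not called.

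The other 4 leukocyte alpha subunits were no DEGs in any comparison. *Itgam* (CD11b of neutrophils and macrophages) differed from naïve corneas by 0.36 ± 0.20, 0.25 ± 0.20 and 0.53 ± 0.20 in IgG, anti-*Vegf* and dexamethasone (adjusted p = 0.22, 0.41 and 0.075, limma). *Itgal* (CD11a of lymphocytes and other leukocytes) differed by 0.33 ± 0.19, 0.34 ± 0.19 and 0.34 ± 0.19. The probe sets of *Itgam* and *Itgal* were not above the 40th percentile of their array on at least 4 arrays, so their signals lay in the same low range. *Itgad*, and *Itgae*, which binds E-cadherin of epithelia, differed by 0.10 to 0.21, and *Itgb7*, the partner of *Itgae*, by -0.14 to -0.04.

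Marker genes of leukocytes rose in the same corneas, and their part in the rise of *Itgb2* and *Itgax* was not tested. Of 6 leukocyte markers, 5 rose in each treatment, *Cd53* by 3.82, 3.94 and 3.81 and *Ptprc* by 3.55, 3.78 and 3.47 on the log2 scale in IgG, anti-*Vegf* and dexamethasone corneas. Their summed signal was 783 to 927 in naïve, 1963 to 2916 in IgG, 2161 to 2686 in anti-*Vegf* and 1611 to 3088 in dexamethasone corneas, and 3 of the 6 lay under the 40th percentile on all naïve arrays. Of 5 neutrophil markers 4 rose in each treatment, of 6 markers of monocytes and macrophages 4, 3 and 3, and of 6 markers of T and NK cells none. Among all genes 6.32%, 6.82% and 8.19% rose in IgG, anti-*Vegf* and dexamethasone corneas.

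Of 8 measured counter-receptors of leukocyte integrins on a list, 3 rose and 2 fell in IgG and in anti-*Vegf* corneas. In dexamethasone corneas 3 rose and 1 fell, beside 11.3%, 12.8% and 12.6% of all genes called in the 3 treatments. *Icam1* and *Vcam1*, ligands of leukocyte integrins on activated endothelium and other cells, rose by 3.22 and 3.20 in IgG, 2.97 and 2.95 in anti-*Vegf* and 3.03 and 3.40 in dexamethasone corneas. *Icam2* rose in all 3 treatments (0.61 to 0.80), *Jam2* fell in all 3, by 1.04, 1.10 and 0.65. *Jam3* fell in IgG (by 0.79) and anti-*Vegf* corneas (by 0.83) and was no DEG in dexamethasone corneas. Under dexamethasone *Jam3* was 0.66 higher than in IgG (adjusted p = 0.017, limma) and 0.70 higher than in anti-*Vegf* (adjusted p = 0.016). Of the 8, 1 was higher and 1 lower under dexamethasone than under IgG, beside 10.6% of all genes called. Against anti-*Vegf* 1 was higher and 0 lower, beside 7.13% of all genes. Of 13 activators of leukocyte integrins, 5 rose and 8 were no DEGs in each treatment, beside 11.3%, 12.8% and 12.6% of all genes called. In all 3 treatments the activators that rose were *Apbb1ip* (the adaptor RIAM, 1.88 to 2.04), *Cd44*, *Fyb1*, *Cd47* and *Fermt3* (kindlin of blood cells, 0.73 to 0.84).

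**Figure D3:**
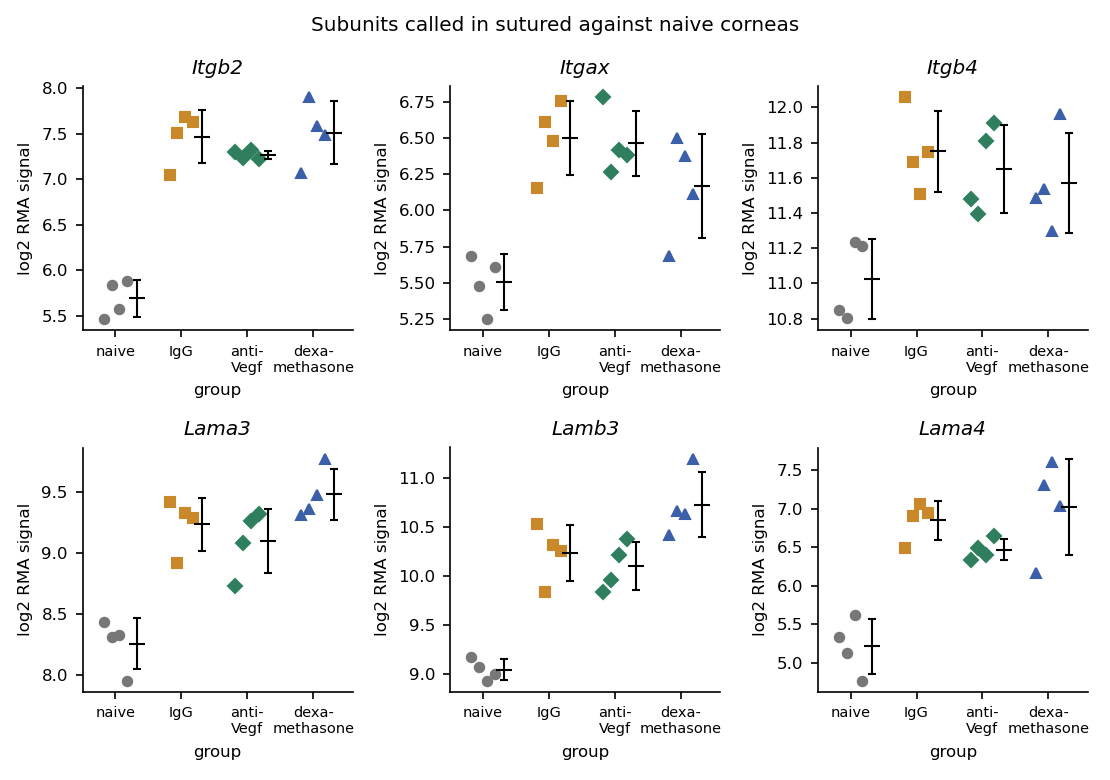
Log2 RMA signal (y axis) of each of 4 arrays per group (x axis) for *Itgb2*, *Itgax*, *Itgb4*, *Lama3*, *Lamb3* and *Lama4*, with the mean and SD in black beside the points. In all 6 panels the 4 naïve arrays are the lowest, and for *Itgax* the lowest dexamethasone array (5.69) meets the naïve range.

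*Lama4*, the alpha chain of laminins around vessels, muscle and mesenchymal cells, rose 3.11-fold in IgG, 2.38-fold in anti-*Vegf* and 3.52-fold in dexamethasone treated corneas. *Lama4* read 4.77, 5.13, 5.34 and 5.62 on the naïve arrays, 6.49, 6.91, 6.95 and 7.06 on the IgG arrays, 6.33, 6.40, 6.49 and 6.65 on the anti-*Vegf* arrays and 6.16, 7.04, 7.30 and 7.61 on the dexamethasone arrays. All 4 naïve arrays lay under the 40th percentile, no sutured array reached the naïve range, and dexamethasone array F25 was the lowest of the sutured arrays. Log2 differences were 1.64 ± 0.24, 1.25 ± 0.24 and 1.82 ± 0.24 (adjusted p = 0.00015, 0.0012 and 6.6e-05, limma). A further probe set of *Lama4*, 1396066_at, had group means of 4.03 to 4.25, under the 40th percentile of every array, and differed by -0.13 to 0.09. With the mean of both probe sets the anti-*Vegf* difference was 0.56, under the fold limit. Of 5 markers of vessel endothelium none rose in any treatment and *Kdr*, the main receptor for *Vegf*, fell in anti-*Vegf* corneas by 1.15, and of 6 markers of pericytes and smooth muscle *Tagln* rose in IgG (1.03) and dexamethasone corneas (0.96).

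*Lama5*, the alpha chain of laminins under most adult epithelia, was 1.78-fold higher in dexamethasone treated than in naïve corneas, and its difference from both antibody groups was called as well. *Lama5* read 7.67, 7.89, 7.95 and 8.11 on the naïve arrays, 8.00, 8.01, 8.29 and 8.57 on the IgG arrays, 7.84, 8.25, 8.37 and 8.40 on the anti-*Vegf* arrays and 8.59, 8.76, 8.80 and 8.81 on the dexamethasone arrays. All dexamethasone arrays lay above all arrays of the other 3 groups, which overlapped each other. The difference from naïve corneas was 0.83 ± 0.14 (adjusted p = 0.00050, limma) in dexamethasone and 0.31 ± 0.14 and 0.31 ± 0.14 in IgG and anti-*Vegf* (adjusted p = 0.12 and 0.12). Its other 2 probe sets, 1396159_at and 1377428_at, differed from naïve corneas by -0.08 to 0.17. Their group means were 4.54 to 4.72 and 4.09 to 4.17, under the 40th percentile of every array, where arrays separate levels poorly. When the 3 probe sets were averaged, dexamethasone minus naïve was 0.31 and under the fold limit. That average takes in the 2 low-signal probe sets.

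*Lamc1*, the gamma chain of most laminins, was a DEG in dexamethasone treated corneas. *Lamc1* read 8.02, 8.03, 8.58 and 8.70 on the naïve arrays, 8.81, 8.87, 8.89 and 8.90 on the IgG arrays, 8.51, 8.70, 8.83 and 8.83 on the anti-*Vegf* arrays and 8.91, 9.03, 9.22 and 9.36 on the dexamethasone arrays. Naïve arrays 1 and 2 lay above naïve arrays 3 and 4 by more than 0.5 on the log2 scale, and the dexamethasone arrays lay above every naïve array. Differences from naïve corneas were 0.53 ± 0.14 in IgG (adjusted p = 0.012, limma, under the fold limit), 0.38 ± 0.14 in anti-*Vegf* (adjusted p = 0.061) and 0.80 ± 0.14 in dexamethasone corneas (adjusted p = 0.00082). On its other probe set, 1370993_at, differences from naïve corneas were 0.46 ± 0.14, 0.11 ± 0.14 and 0.42 ± 0.14, none of them a DEG, and dexamethasone minus IgG was -0.03 ± 0.14. *Lamb1*, the beta chain that goes with it, was no DEG in any comparison. *Lamb1* read 8.80, 8.94, 9.59 and 9.81 on the naïve arrays, 9.10, 9.10, 9.19 and 9.35 on the IgG arrays, 8.99, 9.17, 9.37 and 9.44 on the anti-*Vegf* arrays and 9.12, 9.26, 9.40 and 9.79 on the dexamethasone arrays. Its naïve arrays spanned the whole range of the sutured ones.

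*Lamb2*, a beta chain of laminins in the basement membranes of nerve, muscle and cornea, was the 1 laminin that fell. *Lamb2* read 8.13, 8.14, 8.19 and 8.22 on the naïve arrays, 7.83, 7.95, 8.06 and 8.16 on the IgG arrays, 7.01, 7.66, 7.69 and 7.85 on the anti-*Vegf* arrays and 7.95, 8.28, 8.29 and 8.38 on the dexamethasone arrays. The anti-*Vegf* arrays lay below all naïve and all dexamethasone arrays, and array F6 was the lowest of them. The difference from naïve corneas was -0.62 ± 0.14 in anti-*Vegf* (adjusted p = 0.0048, limma), and without array F6 it was -0.44 and after cyclic loess -0.56, both under the fold limit. In IgG it was -0.17 ± 0.14 and in dexamethasone 0.06 ± 0.14 (adjusted p = 0.43 and 0.83). The other laminins, *Lama1*, *Lama2* and *Lamc3*, differed from naïve corneas by -0.18 to 0.30 and were no DEGs, and the laminins gave 3 of 10 DEGs in IgG, 4 of 10 in anti-*Vegf* and 5 of 10 in dexamethasone treated corneas, beside 11.3%, 12.8% and 12.6% of all genes.

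Among receptors for collagen, *Itga1* was a DEG in dexamethasone treated corneas. *Itga1* read 6.32, 6.33, 6.86 and 7.07 on the naïve arrays, 6.75, 7.32, 7.42 and 7.60 on the IgG arrays, 6.79, 7.39, 7.46 and 7.49 on the anti-*Vegf* arrays and 6.96, 7.59, 7.90 and 8.40 on the dexamethasone arrays. The groups overlapped, since dexamethasone array F25 lay below naïve array 2. The difference from naïve corneas was 1.07 ± 0.27 (adjusted p = 0.0093, limma), and in IgG and anti-*Vegf* corneas it was 0.63 ± 0.27 and 0.64 ± 0.27 (adjusted p = 0.10 and 0.098). *Itga11*, the other collagen receptor measured, differed by -0.40 to -0.03.

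*Itgb3*, which pairs with *Itgav* on many cells and with *Itga2b* on platelets, was a DEG in IgG and dexamethasone corneas at a signal under the 40th percentile of its arrays. *Itgb3* read 4.07, 4.12, 4.26 and 4.32 on the naïve arrays, 4.55, 4.87, 5.05 and 5.32 on the IgG arrays, 4.38, 4.43, 4.54 and 4.55 on the anti-*Vegf* arrays and 4.62, 4.91, 5.03 and 5.38 on the dexamethasone arrays. All sutured arrays lay above all naïve arrays, and the anti-*Vegf* arrays lay below all dexamethasone arrays. Differences from naïve corneas were 0.75 ± 0.16, 0.28 ± 0.16 and 0.79 ± 0.16 (adjusted p = 0.0020, 0.21 and 0.0015, limma), and anti-*Vegf* minus IgG was -0.47 ± 0.16 (adjusted p = 0.56). *Itga2b* was no DEG, at -0.12 to 0.13, and of 5 platelet markers *Pf4* rose, by 2.09, 2.31 and 2.03.

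*Itgav*, the alpha subunit of receptors for fibronectin, vitronectin and osteopontin, gave different answers on its 3 probe sets. *Itgav* read 9.61, 10.17, 10.42 and 10.49 on the naïve arrays, 8.93, 9.85, 9.95 and 10.56 on the IgG arrays, 10.08, 10.13, 10.36 and 10.63 on the anti-*Vegf* arrays and 10.22, 10.29, 10.32 and 10.40 on the dexamethasone arrays. On this probe set, 1393226_at, all groups overlapped and 1 IgG array stood low, and differences from naïve corneas were -0.35 ± 0.26, 0.13 ± 0.26 and 0.14 ± 0.26, none of them called. On 1383880_at they were 0.64 ± 0.10 and 0.83 ± 0.10 in IgG and anti-*Vegf*, both DEGs (adjusted p = 0.00030 and 3.1e-05, limma), and 0.57 ± 0.10 in dexamethasone, under the fold limit. On 1386581_at the anti-*Vegf* difference of 0.76 ± 0.11 was a DEG, and dexamethasone lay 0.47 below anti-*Vegf* on the log2 scale (adjusted p = 0.019).

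*Itgb5*, a further partner of *Itgav*, was no DEG on probe set 1398358_a_at, at 0.00 ± 0.23, -0.16 ± 0.23 and -0.47 ± 0.23. On 1370802_at it fell in all 3 treatments, by 0.61, 0.68 and 0.91 (adjusted p = 0.022, 0.012 and 0.0019, limma), and on 1396133_at in IgG and dexamethasone corneas. *Itgb6*, an epithelial beta subunit that releases latent TGF-beta, *Itga5*, the fibronectin receptor, and *Itga8* and *Itga9* differed from naïve corneas by -0.06 to 0.35 and were no DEGs. Of 13 measured matrix ligands of integrins on a list, 5 rose and 1 fell with IgG and 5 rose and 3 fell with anti-*Vegf*. Under dexamethasone 6 rose and 0 fell, beside 11.3%, 12.8% and 12.6% of all genes called in the 3 treatments. The rises were led by *Tnc* (tenascin C, 2.87, 2.99 and 2.41) and *Spp1* (osteopontin, 1.84, 2.53 and 2.38). *Ccn2*, a matricellular protein, fell in anti-*Vegf* corneas by 1.53 and was 1.90 higher in dexamethasone than in anti-*Vegf* corneas (adjusted p = 0.0012, limma).

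*Itga7*, a laminin receptor of muscle and nerve, and *Itga3*, one of epithelia, were no DEGs. *Itga7* differed from naïve corneas by -0.49 ± 0.09, -0.57 ± 0.09 and -0.31 ± 0.09, with adjusted p = 0.00089, 0.00025 and 0.021 (limma), all under the fold limit. *Itga3* differed by -0.03 to 0.19. Read from the brightest probe set of each gene, 22 genes were called in no comparison. Their differences from naïve corneas on these probe sets ran from -0.57 (*Itga7*) to 0.53 (*Itgam*). Among the 22, *Itgav* and *Itgb5* were DEGs on other probe sets, as given above.

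Between treatments the question was which genes dexamethasone and anti-*Vegf* set apart in corneas that were all sutured. Dexamethasone and anti-*Vegf* differed for 5 of the 36 genes, all higher under dexamethasone, against 7.13% of all genes (4.63% higher, 2.5% lower). Dexamethasone and IgG differed for 3 of the 36, all higher under dexamethasone, against 10.6% of all genes (7.41% higher, 3.16% lower). Signals of the compared arrays stayed apart for 9 and 6 of the 36, against 13.9% and 17.2% of all genes, and both comparisons use the same dexamethasone arrays. Median differences of the 36 genes were 0.16 and 0.17, beside 0.02 and 0.02 over all genes. Of these 8 calls 0 held in all alternatives that were run, which here included a 1.5-fold limit that smaller differences cannot pass. A fit of the 8 arrays of dexamethasone and anti-*Vegf* alone left 0 of the 5. The share of all genes called in that smaller fit is not given here, so a loss common to all genes cannot be told from one of these 5.

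*Itgb1*, the beta subunit that pairs with most alpha subunits of tissue cells, was higher under dexamethasone than in every other group. *Itgb1* read 11.59, 11.62, 11.69 and 11.73 on the naïve arrays, 11.51, 11.62, 11.70 and 11.74 on the IgG arrays, 11.56, 11.68, 11.75 and 11.79 on the anti-*Vegf* arrays and 11.90, 11.96, 12.00 and 12.21 on the dexamethasone arrays. All dexamethasone arrays lay above all 12 other arrays, which overlapped each other. Dexamethasone was 0.38 ± 0.08 above IgG (1.30-fold, adjusted p = 0.0092, limma), 0.32 ± 0.08 above anti-*Vegf* (1.25-fold, adjusted p = 0.027) and 0.36 ± 0.08 above naïve corneas (adjusted p = 0.0044, under the fold limit). The difference from IgG kept its call in 23 of 24 alternatives and lost it with a 1.5-fold limit, and that from anti-*Vegf* lost it without anti-*Vegf* array F1x or F2 or dexamethasone array F27 (adjusted p = 0.061 to 0.083). A further probe set, 1387346_at, gave 0.39 ± 0.09 above IgG and 0.40 ± 0.09 above anti-*Vegf* (adjusted p = 0.014 and 0.017).

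3 laminin chains were higher under dexamethasone than under anti-*Vegf*, namely *Lamb2* by 0.67 ± 0.14 (adjusted p = 0.012, limma), *Lamb3* by 0.63 ± 0.17 (adjusted p = 0.033) and *Lama5* by 0.52 ± 0.14 (adjusted p = 0.037). *Lama5* was also 0.52 ± 0.14 above IgG (adjusted p = 0.029), while *Lamb3* lay 0.49 ± 0.17 above IgG with adjusted p = 0.073. *Lamb2* kept its call without any 1 array. *Lamb3* lost it without anti-*Vegf* array F1x, F2 or F6 or dexamethasone array F26, F27 or F30 (adjusted p = 0.054 to 0.087). *Lama5* lost that against anti-*Vegf* without anti-*Vegf* array F1x or F7 or dexamethasone array F25, F27 or F30 (adjusted p = 0.067 to 0.097), and that against IgG without IgG array F19, F22 or F23 or dexamethasone array F25, F27 or F30 (adjusted p = 0.054 to 0.087). Both calls of *Lama5* were also lost after cyclic loess, at 0.49 and 0.47 (adjusted p = 0.055 and 0.052), and when its probe sets were averaged, at 0.21 and 0.18 (adjusted p = 0.15 and 0.20). The average takes in the low-signal probe sets of *Lama5*. That of *Lamb3* was lost with weighted arrays, at 0.55 (adjusted p = 0.057).

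*Itga6* on probe set 1383240_at was the third gene above IgG, by 0.28 ± 0.08 (adjusted p = 0.037, limma). With the mean of its 4 probe sets the difference was -0.20, and the call was lost without IgG array F19, F22 or F23 or dexamethasone array F26, F27 or F30 (adjusted p = 0.054 to 0.11).

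*Itgbl1*, which codes for a secreted protein with the EGF-like repeats of beta subunits and no membrane anchor, was the gene that fell furthest. *Itgbl1* read 9.25, 9.58, 9.72 and 10.01 on the naïve arrays, 8.69, 8.79, 8.93 and 9.02 on the IgG arrays, 7.82, 8.03, 8.68 and 9.11 on the anti-*Vegf* arrays and 9.04, 9.05, 9.59 and 9.60 on the dexamethasone arrays. The IgG and anti-*Vegf* arrays lay below all naïve arrays, and 2 anti-*Vegf* arrays lay near 8. Differences from naïve corneas were -0.78 ± 0.24 in IgG (adjusted p = 0.023, limma), -1.23 ± 0.24 in anti-*Vegf* (adjusted p = 0.0012) and -0.32 ± 0.24 in dexamethasone (adjusted p = 0.40). Dexamethasone lay 0.91 ± 0.24 above anti-*Vegf* (1.88-fold, adjusted p = 0.032). The IgG call was lost without IgG array F17 or F23 or naïve array 1 or 2 (-0.76 to -0.66, adjusted p = 0.053 to 0.076), and the difference between dexamethasone and anti-*Vegf* without anti-*Vegf* array F6 or F7 or dexamethasone array F25 or F26 (0.71 to 0.82, adjusted p = 0.078 to 0.10).

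The other 3 genes that are no subunits were no DEGs. *Itgb3bp*, a nuclear protein, was 0.35 ± 0.11 above naïve in anti-*Vegf* corneas (adjusted p = 0.025, limma), under the fold limit. *Itgb1bp1*, which binds the tail of the *Itgb1* product, and *Itgb1bp2* differed from naïve corneas by -0.11 to 0.12.

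**Figure D4:**
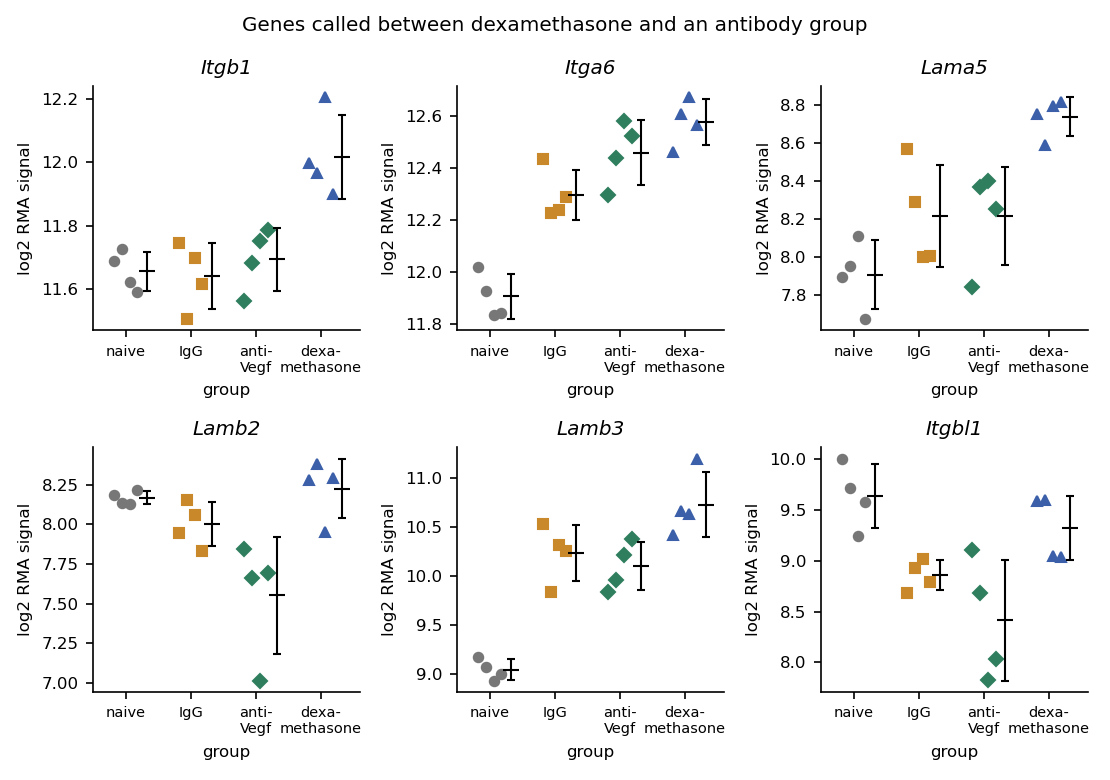
Log2 RMA signal (y axis) of each of 4 arrays per group (x axis) for the 6 genes called between dexamethasone and an antibody group, with the mean and SD in black beside the points. Dexamethasone arrays of *Itgb1* and *Lama5* lie above all others, and the anti-*Vegf* arrays of *Lamb2* (7.01 to 7.85) and *Itgbl1* (7.82 to 9.11) lie below all naïve arrays.

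Of 19 measured partners of the laminins in basement membranes, 9 were higher under dexamethasone than under anti-*Vegf* and none lower, and 6 were higher than under IgG and none lower, beside 7.13% and 10.6% of all genes called in these comparisons. The median log2 differences of the 19 were 0.36 and 0.25. *Col4a1*, a chain of type IV collagen, was 1.18 and 1.03 higher on the log2 scale (adjusted p = 0.0031 and 0.0048, limma), *Smoc2* 1.53 and 0.84 (adjusted p = 0.00046 and 0.011) and *Col7a1*, the collagen of anchoring fibrils, 0.80 and 0.58 (adjusted p = 9.0e-05 and 0.00041). Relative to naïve corneas 1 of the 19 rose and 5 fell in IgG, 2 rose and 7 fell in anti-*Vegf*, and 3 rose and 1 fell in dexamethasone corneas. Of all genes, 11.3%, 12.8% and 12.6% were called in these 3 treatments. *Col4a1* fell by 0.99 in IgG and by 1.15 in anti-*Vegf*, and *Col18a1*, the collagen that yields endostatin, rose by 1.42, 1.43 and 1.59.

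Of 23 measured focal adhesion genes, which couple integrins to actin, 7 were higher under dexamethasone than under anti-*Vegf* and 5 higher than under IgG, with none lower and the rest not called. Their median log2 differences were 0.17 and 0.19, and 7.13% and 10.6% of all genes were called in these comparisons. *Lims2*, an adaptor of integrin-linked kinase, was 2.19 and 1.96 higher (adjusted p = 0.002 and 0.0026, limma), and *Tln1*, the talin that switches integrins on (named after its value was seen), was 0.38 above anti-*Vegf* (adjusted p = 0.0095). Relative to naïve corneas, 3 of the 23 rose and 2 fell in IgG, and 2 rose and 1 fell in anti-*Vegf* corneas. In dexamethasone corneas 7 rose and 1 fell, beside 11.3%, 12.8% and 12.6% of all genes called in the 3 treatments. *Actn1*, an actin crosslinker, rose in all 3 treatments relative to naïve corneas, by 2.39, 2.63 and 2.49. Of 4 measured keratocyte markers *Col8a2* fell in IgG and anti-*Vegf* corneas, by 1.21 and 1.42, *Ptgds* fell in anti-*Vegf* corneas by 1.18, and *Col8a2* was 0.88 higher under dexamethasone than under anti-*Vegf* (adjusted p = 0.023). Of 6 markers of monocytes and macrophages *Cd68* alone differed, 0.81 lower on the log2 scale under dexamethasone than under anti-*Vegf* and 0.86 lower than under IgG (adjusted p = 0.0038 and 0.0015), and their summed signal was 1618 to 2571 under dexamethasone, 2163 to 2607 with anti-*Vegf* and 2633 to 3298 with IgG. Of 6 markers of T and NK cells, of which 5 lay under the 40th percentile on all arrays of each group, *Cd3d* and *Cd3e* were lower under dexamethasone than under IgG, by 0.43 and 0.35. Of 4 markers of Schwann cells *Pmp22* was higher under dexamethasone, by 0.64 against anti-*Vegf* and 0.45 against IgG, with summed signals that overlapped between the groups. The part of these markers in the differences between treatments was not tested. The poly-A controls were 1.83 lower under dexamethasone than under anti-*Vegf* and 2.03 lower than under IgG (exact permutation test, two-sided, p = 0.029 for each, the smallest that 4 against 4 arrays allow), and the 5′ minus 3′ beta-actin signal was 0.46 lower than under IgG (p = 0.029, same exact test). Their part in these differences was not tested, and the poly-A split cannot be told apart from treatment in either comparison.

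Anti-*Vegf* and IgG differed for none of the 36 genes at an adjusted p under 0.05 (limma), and for 0% of all genes. At an unadjusted p under 0.05, 3 of the 36 differed (*Itgb3*, *Lamb2* and *Itgb3bp*) and 942 of 14217 genes. *Itgb3* was -0.47 ± 0.16, *Lamb2* -0.45 ± 0.14 and *Itgb3bp* 0.36 ± 0.11 in anti-*Vegf* minus IgG (adjusted p = 0.56, 0.55 and 0.46). *Itgb3bp* was the 1 gene of the 36 whose anti-*Vegf* and IgG arrays stayed apart, against 5.32% of all genes.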

How the data were processed

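The data were log2 signals of 16 Affymetrix arrays, 1 cornea each, 4 per group. The authors made the deposited log2 values with RMA in Affymetrix Expression Console, per the labels, and versions are not given in the sources used here. They were used unchanged, without the 57 control probe sets. Of 31042 probe sets tested, 20826 carry 1 gene symbol, 436 several and 9780 none. A gene with several probe sets was read from its brightest one, averaged over all arrays.

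Differences were fitted with limma 3.58.1 in R 4.3.3 (1 mean per group, all 16 arrays, empirical Bayes moderation, Benjamini-Hochberg adjustment over the probe sets tested), with the study's limits against naïve corneas. The labels name no batch and no pairing, and 4 arrays per group limit the precision. Members, gene lists and tests were chosen with earlier results of these data known. Array values are printed for genes called between treatments, the 8 largest rises and 6 largest falls among called genes (only *Itgbl1* and *Lamb2* had fallen on average), the 3 integrins and 3 laminins with the brightest probe sets, and members named in the study's gene tables, which were chosen on these arrays. Of each other list, up to 4 called genes per comparison are named by size.

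Alternatives were robust moderation with a trend, weighted arrays, a fit of the compared groups alone, cyclic loess, centring on reference genes (7 of 10 listed had a probe set with 1 symbol), a filter that kept probe sets above the 40th percentile of 4 or more arrays, averaged probe sets per gene, other limits, leaving out each array, and, added after seeing the data, any probe set of the gene. The fit was tested on simulated data for dexamethasone against naïve corneas. It called 35 of 73 genes changed 1.5-fold, 73 of 78 changed 2-fold and 49 of 49 changed 4-fold, with 2 false calls. The 1.5-fold limit itself removes many changes of exactly 1.5-fold, so the count of 35 of 73 does not measure the precision of the fit. Fewer genes were changed there than were DEGs in dexamethasone treated corneas, and comparisons between treatments were not simulated. The lack of a call does not exclude a change near 1.5-fold.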

Additional observations from a re-analysis of the deposited data

Results flagged for a closer look

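In 5 of 144 groups of 4 arrays (36 genes in 4 groups), 1 array stood apart from the other 3 by Dixon's test for outliers, which chance passes in about 1 group in 20. *Itga1* read 6.79 on anti-*Vegf* array F1x, below 7.39 to 7.49 on the others. *Lamc3* read 6.90 on the same array, below 7.26 to 7.32, and 7.18 on naïve array 2, below 7.32 to 7.33. *Itgb6* read 9.86 on anti-*Vegf* array F6, below 10.13 to 10.18. *Itgal* read 5.49 on naïve array 4, above 5.37 to 5.38, at a low signal. Of these genes *Itga1* alone was a DEG, in dexamethasone treated corneas.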

How the results depend on the processing

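Of 34 calls of member genes, 15 held in all alternatives that were run, the other limits included, and 10 were lost without some array, with 5 of 8 held for IgG, 4 of 8 for anti-*Vegf* and 6 of 10 for dexamethasone against naïve corneas, 0 of 5 for dexamethasone against anti-*Vegf* and 0 of 3 for dexamethasone against IgG. The other limits ran in opposite directions. Against naïve corneas the fold limit was dropped, which cannot lose a call. Between treatments a 1.5-fold limit was added, which smaller differences cannot pass, so the held counts of the 2 kinds of comparison are not alike. *Itgb1* in dexamethasone against IgG was lost under that added limit alone. *Itgb3* could not be tested under the low-signal filter. Counts against naïve corneas stayed within 1.5 times. The 5 genes called between dexamethasone and anti-*Vegf* became 0 in a fit of these groups alone, 3 with a 1.5-fold limit and 2 to 6 with 1 array left out (2 without anti-*Vegf* array F1x or dexamethasone array F27, 3 without anti-*Vegf* array F2, F6 or F7 or dexamethasone array F26). The 3 between dexamethasone and IgG became 1 when the probe sets of each gene were averaged, 0 with a 1.5-fold limit and 1 to 3 with 1 array left out (1 without IgG array F19, F22 or F23 or dexamethasone array F27 or F30). The cause was not tested, apart from the stricter limit itself. *Itga6* in dexamethasone minus IgG reversed to -0.20 with the mean of its probe sets, which differ in direction. No paired analysis was possible because the labels share no replicate numbers between groups.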
